A study of Homo sapiens with 24 samples.

Results

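The 200 best expressed antisense transcripts were followed through SYK and BET inhibition in B-cell lymphoma cells, on Clariom D whole-transcriptome arrays of 2 lines. They were taken from 1084 symbols that end in AS and a number (FOXP1-AS1 was set aside) among 25161 symbols in all. Each symbol was represented by its brightest row, and the 200 members were selected on the highest mean over the 6 DMSO arrays. The lines were SU-DHL-4, of diffuse large B-cell lymphoma, and DG-75, of Burkitt lymphoma. Both were kept for 72 h in DMSO, in 1 µM Entospletinib (Ento), an inhibitor of the kinase SYK, in 0.01 µM AZD5153 (AZD), a bivalent inhibitor of BET bromodomain proteins, or in both (Ento+AZD), with 3 arrays for each of the 8 groups. The groups stand for these established lines only, and in bulk RNA a smaller number of cells and less RNA per cell cannot be told apart.

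An antisense transcript is read from the strand opposite to a neighbouring gene, the sense gene, whose name it borrows. Some start head to head with that gene from a shared GC-rich promoter region, others lie over its introns or its end, and they may act on the sense gene, act elsewhere or have no known function. Many such transcripts are short-lived because the nuclear RNA exosome degrades them. SYK passes on the signal of the B-cell receptor, and BET proteins bind acetylated chromatin and help RNA polymerase to elongate.

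The names held up against the RefSeq annotation (GRCh38.p14): all 200 symbols were matched, 4 of them by an older name, and in the 140 pairs with a listed start for both genes the strands were opposite in 140. The sense symbol was on the array for 191 members, and the annotated spans of 156 of these pairs overlapped, while 32 lay within 10 kb and 3 farther apart. In 63 of the 140 pairs the starts lay within 1 kb of each other. For 102 members a protein-coding gene started on the opposite strand within 1 kb, and in 63 it was the gene that gave the name. LYRM4-AS1 was an exception, since the coding start opposite it was that of RPP40, a subunit of RNase P. The B-cell markers CD79A (11.21 to 12.43 over all arrays) and PAX5 (7.90 to 8.88) were well measured in both lines, and the T-cell gene CD3G stayed between 1.80 and 2.61. Genes of other cell types were not all that low. EPCAM read 1.93 to 3.28, but NKG7 read 5.13 to 6.11, COL1A1 5.49 to 6.17 and KRT8 6.77 to 7.50. Without detection values, members at such levels are not shown to be above background.

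The promoters of 4 transcripts on which the results below turn are shown as RefSeq gives them for GRCh38.p14, from 250 bases before to 50 bases after the annotated start, 5′ to 3′ on the plus strand, from which all 4 are read. They are those of LYRM4-AS1 (chr6:5003566-5003865) and PPP3CB-AS1 (chr10:73495502-73495801), higher under Ento+AZD, of SBF2-AS1 (chr11:9758043-9758342), lower under Ento+AZD, and of IFNG-AS1 (chr12:67989197-67989496), higher under Ento. Capitals mark matches, on either strand, to the 5 motifs searched.
LYRM4-AS1: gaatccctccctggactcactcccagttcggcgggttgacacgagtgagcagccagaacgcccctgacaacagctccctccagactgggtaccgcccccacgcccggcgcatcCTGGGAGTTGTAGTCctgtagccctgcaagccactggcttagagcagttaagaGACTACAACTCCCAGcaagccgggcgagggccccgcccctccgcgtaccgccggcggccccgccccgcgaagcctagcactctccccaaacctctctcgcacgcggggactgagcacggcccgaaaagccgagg
PPP3CB-AS1: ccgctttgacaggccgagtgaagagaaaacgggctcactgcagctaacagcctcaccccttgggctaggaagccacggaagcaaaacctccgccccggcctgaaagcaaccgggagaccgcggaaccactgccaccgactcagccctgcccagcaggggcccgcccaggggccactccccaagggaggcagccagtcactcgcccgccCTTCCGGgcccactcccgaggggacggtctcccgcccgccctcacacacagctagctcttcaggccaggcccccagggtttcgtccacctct
SBF2-AS1: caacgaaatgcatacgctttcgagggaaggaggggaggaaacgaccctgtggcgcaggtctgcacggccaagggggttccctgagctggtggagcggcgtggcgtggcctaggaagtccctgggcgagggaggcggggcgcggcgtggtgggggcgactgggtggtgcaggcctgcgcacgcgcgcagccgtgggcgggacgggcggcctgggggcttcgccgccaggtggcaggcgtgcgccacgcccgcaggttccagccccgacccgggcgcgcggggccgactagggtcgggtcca
IFNG-AS1: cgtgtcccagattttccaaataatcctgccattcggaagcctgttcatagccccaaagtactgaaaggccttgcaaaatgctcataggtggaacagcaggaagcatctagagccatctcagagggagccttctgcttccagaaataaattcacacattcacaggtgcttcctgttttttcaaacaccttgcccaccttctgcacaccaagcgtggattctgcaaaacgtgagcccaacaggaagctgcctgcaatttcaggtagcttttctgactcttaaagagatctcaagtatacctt

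The capitals in LYRM4-AS1 are 2 copies of CTGGGAGTTGTAGTC in opposite orientations, the longest stretch of this window whose reverse complement lies elsewhere in it. The letters belong to the kind of site known for the zinc finger protein ZNF143, and they were searched because this window holds them. They were present in 0.136% of 27305 RefSeq promoters of the same length, 2 of which (0.00732%) held more than 1 copy, and LYRM4-AS1 was the only member among 160 with a promoter entry that held it. PPP3CB-AS1 held 1 match to CCGGAAG, the core bound by ETS factors, which 10.7% of all promoters and 15% of member promoters contained. The windows of SBF2-AS1 and IFNG-AS1 held none of the 5 motifs. The TATA box, searched as TATAAA, was in 3.12% of member promoters against 12% of all. The E-box, searched as CACGTG, was in 7.5% against 7.43%, and the CCAAT box in 31.9% against 35.7%. Member promoters had a median GC content of 64.3%, against 58.3% over all promoters, while the IFNG-AS1 window had 46.3%.

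In the DMSO arrays the log2 intensity of the members, which was used to choose them, ran from 9.66 for EPB41L4A-AS1 to 5.24 for ARHGAP26-AS1, with a median of 6.02. The median over all rows of the table was 5.10 and that of the other antisense symbols 3.22. After EPB41L4A-AS1 came THAP9-AS1, NUTM2A-AS1, C10orf95-AS1, OSBPL10-AS1, ZBTB46-AS1, EMC3-AS1, SAP30L-AS1, NUTM2B-AS1 and OIP5-AS1, and 11 members exceeded 8, while 98 lay below 6. Just inside the limit were UBE2E1-AS1 (5.27), KRT10-AS1 (5.26) and ARHGAP26-AS1 (5.24), and just outside it MRTFA-AS1 (5.24), TSPAN14-AS1 (5.23) and KIAA1671-AS1 (5.23). Intensities of different probes do not rank molecules, so the order is one of brightness. NUTM2A-AS1 and NUTM2B-AS1, and likewise PGM5-AS1, PGM5P3-AS1 and PGM5P4-AS1, come from near-identical copies and their values may hold signal of each other. The median SD of the members within a group of 3 arrays was 0.169 to 0.218 log2 units.

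**Figure D1:**
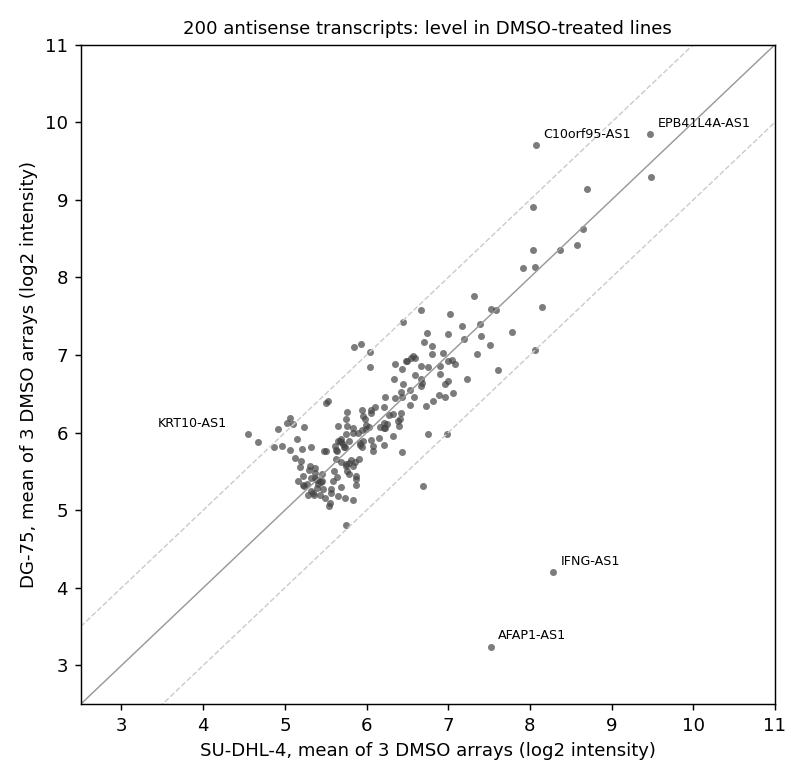
Mean log2 intensity of the 200 antisense transcripts over 3 DMSO arrays of SU-DHL-4 (horizontal) and of DG-75 (vertical), 1 point for each transcript. The solid line marks equal levels and the dashed lines a difference of 1 log2 unit, beyond which 14 transcripts lie, with AFAP1-AS1 and IFNG-AS1 farthest from the line.

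In the DMSO arrays, which chose the members, the median absolute difference between the lines was 0.229 log2 units. There 14 members differed by more than 1, and 10 of these were higher in DG-75, as the plot of DMSO levels shows. No share over all rows was taken there, so these values only describe the members. In treated cells a larger share of members than of all rows differed without a fold limit, as the last section gives. Since DMSO arrays chose the members, the lines were tested on the 18 arrays of treated cells. This fit had treatment and line as terms and none for the replicate. It took the arrays of a line as independent, so its p-values may be too small. In it 14 members (7.0%) were called, that is, had an adjusted p under 0.05 in limma and an absolute log2 difference above 1, against 7.08% of all rows. Of the 14, 5 were higher in SU-DHL-4 (2.85% of all rows) and 9 in DG-75 (4.23%). A member needed only a high mean over both lines, and 19 lay below the limit of 5.24 in SU-DHL-4, with another 14 below it in DG-75. Of the 14 called members 8 were among these and were chosen through the line where they were high, so the line differences are given as a description and nothing is read from their share.

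AFAP1-AS1, which lies opposite a gene for an actin filament-associated protein, was the widest apart. It measured 7.49 to 8.18 (median 7.82) in the 9 treated SU-DHL-4 arrays and 2.51 to 3.71 (median 3.09) in the 9 of DG-75. The lines did not overlap. The DG-75 values spanned those of CD3D, a T-cell gene, in that line (2.75 to 3.69), and without detection values they cannot be told from background, so the difference of 4.72 is one of array signal and gives no fold in RNA. IFNG-AS1, known from T and NK cells where it lies next to the gene for interferon gamma, measured 7.60 to 9.07 (median 8.32) in SU-DHL-4 and 3.58 to 6.08 (median 4.75) in DG-75. Its DG-75 values overlapped with those of CD3E, another T-cell gene, in that line (3.37 to 4.61), so the difference of 3.68 is likewise one of array signal. Both transcripts were members through SU-DHL-4 alone. PCED1B-AS1 (1.20), RAB11B-AS1 (1.10) and UBAC2-AS1 (1.10) were also higher in SU-DHL-4. Higher in DG-75 were KRT10-AS1 (SU-DHL-4 minus DG-75, -1.44), URB1-AS1 (-1.34), PDCD4-AS1 (-1.31), KLRK1-AS1 (-1.18), ZNF337-AS1 (-1.15), BCAR3-AS1 (-1.11), C10orf95-AS1 (-1.10), PRKCQ-AS1 (-1.01) and MAP3K14-AS1 (-1.01). The last 2 sat at the fold limit and were called in 11 and 10 of 18 fits that left out 1 array, and after quantile normalization or subtraction of array medians they were at -0.91 to -0.95.

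Of the 13 sense genes on the array that lie opposite these transcripts, 1 differed by more than 1 (7.69%), in the opposite direction, against 12 of all 191 sense genes (6.28%) and 7.08% of all rows. The level of AFAP1 differed by 0.41 and that of IFNG by 0.11, and IFNG stayed between 1.88 and 3.0 in all 24 arrays. PCED1B (0.86) and UBAC2 (0.95) leaned the same way as their antisense transcripts. BCAR3, an adaptor protein of integrin and growth factor signalling, was 1.5 higher in SU-DHL-4 (limma, adjusted p = 9.03e-09) while BCAR3-AS1 was 1.11 lower there.

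Among the 12 sense genes that differed by more than 1, only BCAR3 had a called antisense transcript. The gene for titin, TTN, was 5.29 higher in SU-DHL-4, against -0.25 for TTN-AS1. DENND5B, a regulator of membrane traffic, was 5.23 higher against 0.38, EPB41L4A 3.96 higher against -0.47, and OSBPL10, a lipid-binding protein, 3.12 higher against 0.00. The costimulatory receptor CD27 was 2.46 higher in SU-DHL-4 and CD27-AS1 0.57 lower, while SMAD1, a mediator of BMP signalling, was 4.87 lower and SMAD1-AS1 0.99 lower. Without detection values these differences are likewise of array signal and give no fold in RNA. Across the 191 pairs the line difference of the antisense transcript and that of the sense gene had r = 0.119, a description over pairs that share the same arrays.

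**Figure D2:**
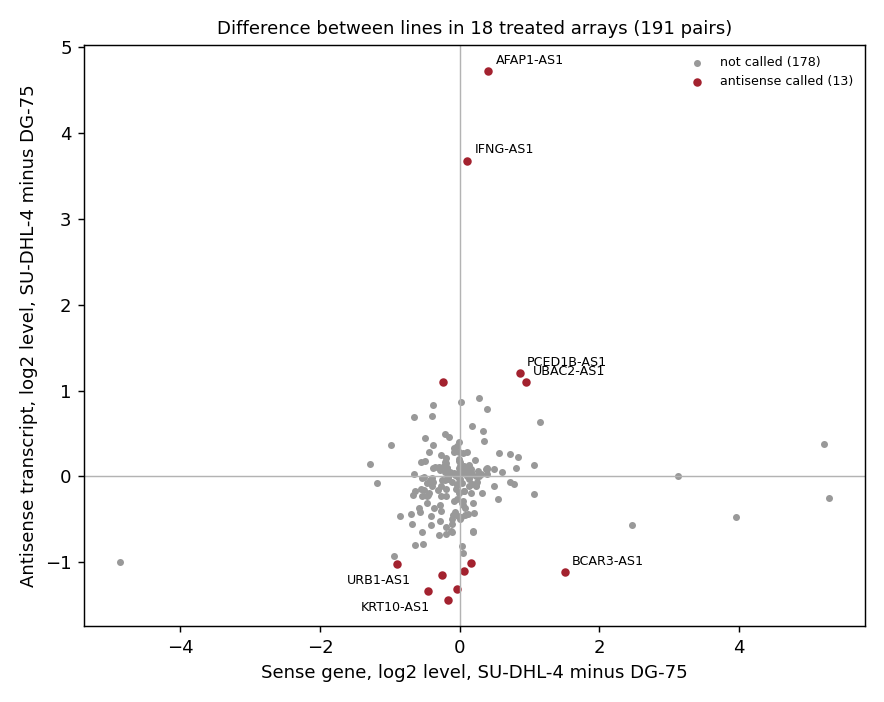
Difference in log2 level between the lines (SU-DHL-4 minus DG-75, 18 treated arrays) of the sense gene (horizontal) and of the antisense transcript (vertical) for 191 pairs. Red points are the 13 called antisense transcripts with a sense symbol on the array, of which only BCAR3-AS1 has a sense gene beyond 1. The 11 other sense genes beyond 1 have antisense transcripts between -0.99 and 0.64.

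Under Ento alone IFNG-AS1 was the member that stood out. In SU-DHL-4 it read 8.31, 8.53 and 8.02 in DMSO and 9.07, 8.71 and 9.05 under Ento. In DG-75, where its level was far lower, it read 3.83, 4.27 and 4.50 in DMSO and 5.55, 5.02 and 6.08 under Ento. The groups did not overlap in either line. The DMSO values of DG-75 lay within the range of CD3E there and cannot be told from background, so the change in DG-75, and with it the one over both lines, is one of array signal and gives no fold in RNA.

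Taken over both lines, IFNG-AS1 was 1.00 higher under Ento (SE 0.16; limma, adjusted p = 0.0279) and was 1 of 2 rows called in the whole table (0.00782%). This call was narrow: it was made in 4 of 12 fits that left out 1 array, was lost without DMSO replicate 1 or 3 of either line, any Ento array of DG-75 or Ento replicate 3 of SU-DHL-4 (adjusted p up to 0.170 in limma), and had an adjusted p of 0.0628 after quantile normalization and 0.252 without the replicate term. Within the lines it was not called (SU-DHL-4 0.66, adjusted p = 0.363; DG-75 1.34, adjusted p = 0.525; limma). IFNG itself was at 2.39, 2.22 and 2.28 in DMSO and 2.14, 2.45 and 3.0 under Ento in SU-DHL-4, and at 2.05, 2.16 and 2.58 against 2.15, 2.36 and 2.11 in DG-75.

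No member was called under Ento within SU-DHL-4 (0.0508% of all rows were) or DG-75 (0.00391%) by limma. At an unadjusted p under 0.05 there were 16 members (8.0%) in SU-DHL-4 against 8.59% of all rows, and 4 in DG-75 (2.0%) against 2.81%. In SU-DHL-4 the smallest unadjusted p belonged to URB1-AS1 (-0.73), opposite a ribosome biogenesis gene, followed by IFNG-AS1 and BOK-AS1 (0.66). None of these passed the adjustment.

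Under AZD alone no member was called in SU-DHL-4 (0.18% of all rows), in DG-75 (0.18%) or over both lines (0.254%) by limma, and 24, 28 and 32 members had an unadjusted p under 0.05 (11.5%, 13.8% and 18% of all rows). At an adjusted p under 0.05 with no fold limit, 9 members (4.5%) passed over both lines, against 4.66% of all rows. The 3 higher (0.371% of all rows) were PPP3CB-AS1 (0.89, adjusted p = 0.00153), LYRM4-AS1 (0.85, adjusted p = 0.00188) and SH3BP5-AS1 (0.48, adjusted p = 0.0133), all by limma. Among the 6 lower (4.29%) were SBF2-AS1 (-0.73), LCMT1-AS1 (-0.65), FOXD2-AS1 (-0.52) and PCNA-AS1 (-0.47). The split depended on scaling, since after subtraction of array medians 7 were higher and 1 lower, and after quantile normalization 14 and 1. Without the replicate term 3 were higher and 3 lower. With 1 array left out 4 to 10 members passed, and it was 4 or 5 without DG-75 AZD replicate 1 or 3, DG-75 DMSO replicate 1 or SU-DHL-4 DMSO replicate 2.

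Under the combination few members were called, at shares near those of all rows. Within SU-DHL-4, 2 members (1.0%) were called against 1.19% of all rows, 1 higher and 1 lower, and the higher was LYRM4-AS1. Within DG-75 it was 3 members (1.5%) against 0.833%, PPP3CB-AS1 and TMEM44-AS1 higher and SBF2-AS1 lower. Over both lines 3 members (1.5%) were called against 0.856%, 2 higher, LYRM4-AS1 and PPP3CB-AS1, and 1 lower.

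LYRM4-AS1, named after a gene of mitochondrial iron-sulfur cluster assembly, rose in both lines. In SU-DHL-4 it read 5.90, 5.57 and 5.43 in DMSO, 5.85, 6.08 and 4.92 under Ento, 6.22, 6.83 and 6.57 under AZD and 7.04, 7.01 and 6.54 under Ento+AZD. In DG-75 the readings were 5.88, 5.70 and 5.71 in DMSO, 6.04, 5.78 and 5.92 under Ento, 6.65, 6.52 and 6.50 under AZD and 6.70, 6.87 and 6.70 under Ento+AZD. The AZD and the Ento+AZD arrays lay above all DMSO arrays of their line, and the Ento arrays overlapped with DMSO. Over both lines the change under Ento+AZD was 1.11 (SE 0.13; limma, adjusted p = 3.4e-05), and the call was made in 12 of 12 fits that left out 1 array.

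LYRM4 did not follow its antisense transcript. It read 6.95, 7.22 and 7.21 in DMSO and 7.52, 7.09 and 7.46 under Ento+AZD in SU-DHL-4, and 6.81, 6.37 and 6.91 against 6.42, 6.06 and 6.87 in DG-75, with a change of -0.01 over both lines (limma, adjusted p = 0.988). RPP40, which starts opposite LYRM4-AS1, changed by 0.55 in SU-DHL-4, against 0.00 in DG-75 (limma, adjusted p = 0.365 and 0.999). LYRM4-AS1 thus rose without a called change in either neighbour.

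PPP3CB-AS1, opposite the catalytic beta subunit of calcineurin, was likewise high under AZD and the combination. In SU-DHL-4 it read 6.2, 6.34 and 5.79 in DMSO, 6.85, 6.89 and 6.79 under AZD and 6.87, 7.19 and 6.91 under Ento+AZD. In DG-75 it read 6.44, 5.84 and 6.73 in DMSO, 7.15, 7.26 and 7.70 under AZD and 7.69, 7.12 and 7.75 under Ento+AZD. Again no AZD or Ento+AZD array overlapped with DMSO in either line. The change over both lines was 1.03 (SE 0.14; limma, adjusted p = 7.41e-05), while PPP3CB changed by -0.01 (limma, adjusted p = 0.970). Without DMSO replicate 2, Ento+AZD replicate 1 or Ento+AZD replicate 3 of DG-75 the fold came to 0.95 to 1.00, just under the limit, with an adjusted p of at most 0.000389 in limma.

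SBF2-AS1, opposite a gene for a myotubularin-related protein, fell. It read 6.90, 6.78 and 6.19 in DMSO and 5.43, 5.72 and 5.31 under Ento+AZD in DG-75, a change of -1.14 (SE 0.19; limma, adjusted p = 0.021). In SU-DHL-4 the readings were 6.66, 6.0 and 6.68 in DMSO and 5.82, 5.90 and 5.78 under Ento+AZD. Neither line overlapped, and over both lines the change was -0.88 (limma, adjusted p = 0.000976). SBF2 was at 6.12, 6.41 and 6.85 in DMSO and 5.51, 5.73 and 5.38 under Ento+AZD in SU-DHL-4 (limma, adjusted p = 0.0535), and at 6.88, 7.32 and 6.83 against 6.92, 6.97 and 6.94 in DG-75.

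TMEM44-AS1, opposite a transmembrane protein gene, was higher in DG-75, with 6.2, 5.72 and 6.29 in DMSO and 7.43, 6.92 and 7.04 under Ento+AZD (1.06, SE 0.17; limma, adjusted p = 0.0203). In SU-DHL-4 it went from 6.12, 6.13 and 5.84 to 6.43, 6.45 and 6.32. The arrays did not overlap in either line, and the responses of the lines differed by -0.68 (SU-DHL-4 minus DG-75), which did not pass the adjustment (limma, adjusted p = 0.447).

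**Figure D3:**
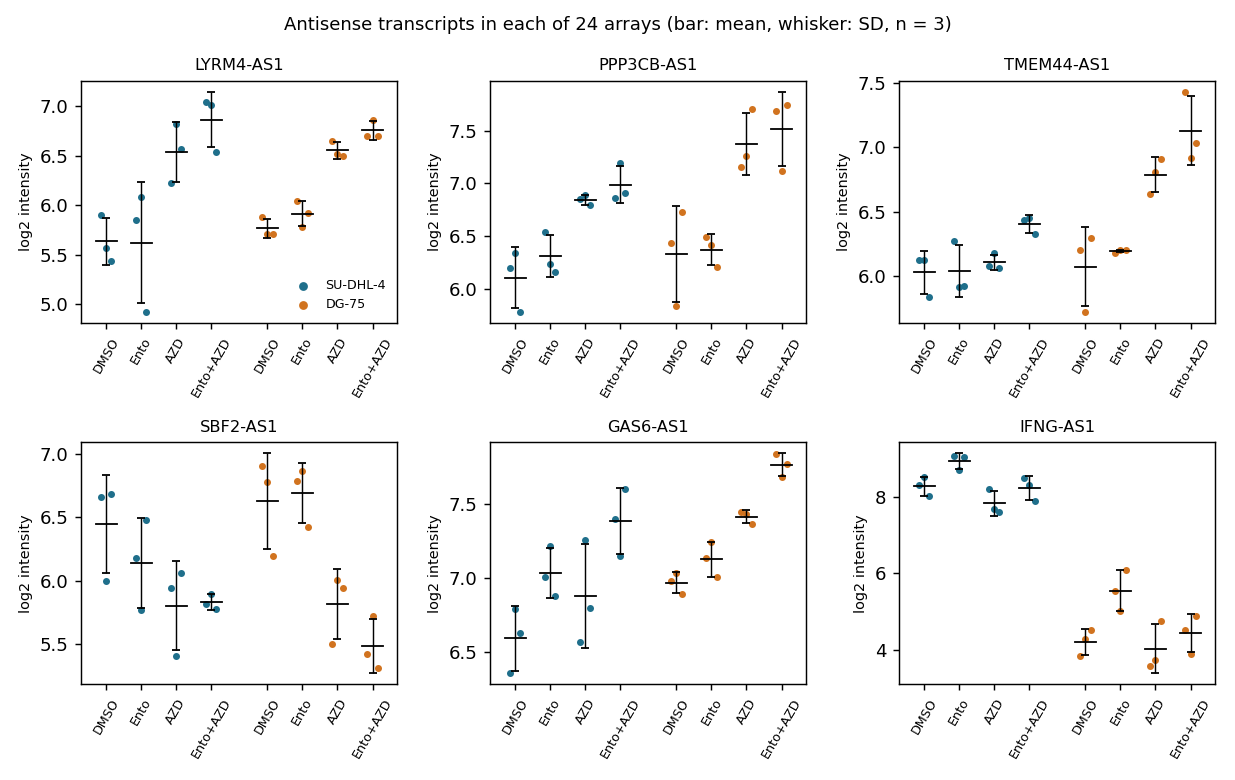
Log2 intensity of 6 antisense transcripts in each of the 24 arrays, by treatment, with SU-DHL-4 in blue and DG-75 in orange. Bars are the mean and whiskers the SD of 3 arrays. LYRM4-AS1 and PPP3CB-AS1 lie above DMSO under AZD and Ento+AZD in both lines, GAS6-AS1 lies above and SBF2-AS1 below DMSO under Ento+AZD, and IFNG-AS1 is highest under Ento in both lines.

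The calls within a line rested on few arrays. Leaving out 1 of the 6 arrays of a contrast left LYRM4-AS1 called in SU-DHL-4 only when DMSO replicate 1 was the array removed. In DG-75, PPP3CB-AS1 was called in 0 of 6 such fits, TMEM44-AS1 in 1, which omitted Ento+AZD replicate 3, and SBF2-AS1 in 2, which omitted the replicate 3 of DMSO or of Ento+AZD. Without the replicate number as a term, the SU-DHL-4 call of LYRM4-AS1 (adjusted p = 0.0756) was lost in limma.

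Most of the smaller changes under Ento+AZD were increases. At an adjusted p under 0.05 with no fold limit, 31 members (15.5%) passed over both lines in limma, against 8.49% of all rows and 15.5% of the 12284 rows at or above the level of the dimmest member. Of these 31, 23 were higher (11.5%, against 1.46% of all rows and 2.49% of rows at that level) and 8 were lower (4.0%, against 7.03% and 13%). Most other rows that changed were thus lower, whereas most members that changed were higher. The counts were 29 higher and 5 lower after subtraction of array medians, 31 and 5 after quantile normalization, and between 16 and 22 higher and 5 and 8 lower when 1 array was left out. Without the replicate term they were 19 higher and 4 lower. DMSO arrays both chose the members and serve as the control here, so the contrast is not independent of the choice. Choosing the members by their level in the 18 treated arrays, which shares 188 of the 200, gave 27 higher and 8 lower.

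Within each line fewer members passed. In SU-DHL-4 6 members were higher and 2 lower at an adjusted p under 0.05 in limma (0.301% and 2.06% of all rows), and in DG-75 7 were higher and 1 lower (0.516% and 1.87%). These counts were unstable: with any 1 array left out, the members that passed numbered 0 to 5 for SU-DHL-4, and for DG-75 0 to 4. Without the replicate term they numbered 0 for SU-DHL-4, and for DG-75 7. In SU-DHL-4 33 members had Ento+AZD arrays wholly above DMSO (4.84% of all rows) and 15 wholly below (16.0%). In DG-75 it was 27 above (4.79%) and 14 below (14.0%). The median change of the members over both lines was 0.04, that of all rows -0.07 and that of the members' 191 sense genes -0.14, of which 6 were higher and 23 lower. The 884 other antisense symbols had a median of 0.02, with 9 higher and 8 lower. Both sets of counts are to be read against 1.46% higher and 7.03% lower of all rows over both lines. Of rows at the members' level it was 2.49% and 13%.

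Among the members that rose, GAS6-AS1, opposite the gene for a ligand of the TAM receptor kinases, read 6.36, 6.79 and 6.63 in DMSO and 7.40, 7.15 and 7.60 under Ento+AZD in SU-DHL-4, and 6.98, 7.03 and 6.89 against 7.84, 7.68 and 7.77 in DG-75. No arrays overlapped, and the change was 0.79 (SE 0.11; limma, adjusted p = 0.000142), against 0.03 for GAS6. Other members that rose were ASB16-AS1 (0.69), CCDC18-AS1 (0.67), SH3BP5-AS1 (0.66), PSMG3-AS1 (0.64) and MAP3K14-AS1 (0.62), and the remaining 14 beside these, TMEM44-AS1 and the 2 called members lay between 0.31 and 0.56. Among the 8 lower, beside SBF2-AS1, were PCNA-AS1 (-0.70), LCMT1-AS1 (-0.59), TMPO-AS1 (-0.59), NNT-AS1 (-0.57), EMC3-AS1 (-0.47) and SGO1-AS1 (-0.46). Of these, LCMT1-AS1, TMPO-AS1 and SGO1-AS1 lost significance after both other scalings.

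**Figure D4:**
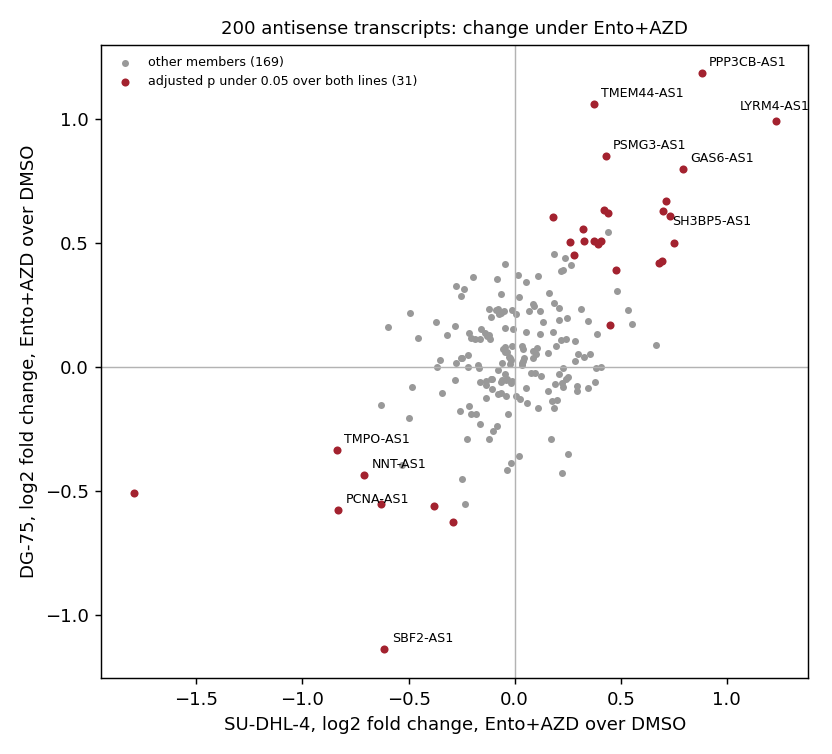
Log2 fold change under Ento+AZD against DMSO in SU-DHL-4 (horizontal) and DG-75 (vertical) for the 200 antisense transcripts. Red points are the 31 with an adjusted p under 0.05 over both lines, of which 23 are in the upper right and 8 in the lower left.

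The lines share no array. Across the 200 members the changes under Ento+AZD in SU-DHL-4 and DG-75 had r = 0.608, against 0.425 across all rows and 0.137 across the other antisense symbols, as a description, since members of a line share arrays. These sets differ in brightness (DMSO medians of 6.02, 5.10 and 3.22), and no r was taken for rows at the members' level. Whether brightness alone sets the r values apart was not tested. The share with the same sign in both lines under Ento+AZD was 61.5% for the members and 62.2% for all rows. For the other antisense symbols it was 51.1%. In the same order these shares were 66.0%, 60.4% and 51.5% under AZD, and 53.5%, 54.9% and 50.7% under Ento. They were not compared by a test. Most rows fell under Ento+AZD, which by itself can raise the share for all rows. Above 0 lay 36.0% of all rows against 51.0% of members for SU-DHL-4, while for DG-75 it was 38.6% against 61.5%. Under AZD r was 0.487 and under Ento 0.177. No member differed in its response between the lines by limma (0.0352% of rows did under Ento+AZD, 0.00782% under Ento and 0.0% under AZD), with 10, 10 and 12 members at an unadjusted p under 0.05 (6.51%, 4.43% and 6.16% of rows). TSPOAP1-AS1 had the smallest p under Ento+AZD: it read 7.05, 6.94 and 7.0 in DMSO and 6.63, 6.19 and 6.37 under Ento+AZD in SU-DHL-4, and 7.38, 7.25 and 7.17 against 7.54, 7.56 and 7.17 in DG-75, a difference of -0.76 between the responses (limma, adjusted p = 0.219).

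The combination was also set against each single agent, which uses no DMSO array. Against Ento, 3 members (1.5%) were called in DG-75 (0.657% of all rows): SBF2-AS1 (-1.20), IFNG-AS1 (-1.12, with Ento at 5.55, 5.02 and 6.08 and Ento+AZD at 4.52, 3.89 and 4.87) and PPP3CB-AS1 (1.14), with an adjusted p of 0.0199 to 0.0307 in limma. The IFNG-AS1 groups did not overlap, but 2 of its 3 Ento+AZD values lay within the range of CD3E in that line (3.37 to 4.61), so its difference is one of array signal and gives no fold in RNA. Leaving out 1 array left SBF2-AS1 called in 2 of 6 fits (those that omitted the replicate 3 of Ento or of Ento+AZD), IFNG-AS1 in 1 (omitting Ento replicate 3) and PPP3CB-AS1 in 0. In SU-DHL-4 no member was called against Ento (0.0821% of rows; 28 at an unadjusted p under 0.05, as 9.67% of rows), with LYRM4-AS1 at 1.25 (adjusted p = 0.0749) and TSPOAP1-AS1 at -0.94 (adjusted p = 0.0451, under the fold limit), both by limma. Against AZD no member was called by limma in SU-DHL-4 (0.0274%; 17 at an unadjusted p under 0.05, against 7.03% of rows) or DG-75 (0.0%; 8, against 4.03%).

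Whether an antisense transcript moved apart from its sense gene was tested on the log2 difference between both in each array, over 1056 pairs. Under Ento+AZD 4 of the 191 member pairs (2.09%) were called in SU-DHL-4, against 1.8% of all pairs, and 5 (2.62%) in DG-75, against 0.663%. The difference rose in 8 of these 9 calls. Over all pairs, which include the member pairs, 16 of 19 calls rose for SU-DHL-4, and for DG-75 7 of 7, of which 5 were the member calls. In SU-DHL-4 the pairs that rose were NRSN2-AS1 (1.20), PRC1-AS1 (1.16) and EPB41L4A-AS1 (1.15). In DG-75 they were COA6-AS1 (1.33), PPP3CB-AS1 (1.22), PSMG3-AS1 (1.21), PSMA3-AS1 (1.18) and SVIL-AS1 (1.09).

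In most of these pairs the sense gene carried the larger part of the difference. PRC1, which bundles microtubules in cell division, was at -1.69 in SU-DHL-4 (limma, adjusted p = 0.00635) and PRC1-AS1 at -0.53. SVIL, for the actin-binding protein supervillin, was at -1.01 in DG-75 (limma, adjusted p = 0.0302) and SVIL-AS1 at 0.08. COA6, a factor of cytochrome c oxidase assembly, was at -0.94 and COA6-AS1 at 0.39, and PSMA3, a proteasome subunit, at -0.67 with PSMA3-AS1 at 0.51. For PPP3CB-AS1 and for PSMG3-AS1 (0.85, against -0.36 for PSMG3, a proteasome assembly chaperone) the antisense transcript carried it.

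Under AZD 1 member pair (0.524%) was called in DG-75 against 0.284%, again SVIL-AS1 (1.24), and 0 in SU-DHL-4 against 0.568% (22 at an unadjusted p under 0.05, against 10.9% of pairs). Under Ento limma called 0 member pairs in SU-DHL-4 (0.189%) and DG-75 (0.0%), with 12 and 3 at an unadjusted p under 0.05 (7.01% and 2.65% of pairs). These calls were as narrow as those above: with 1 array left out, 0 to 3 member pairs were called in SU-DHL-4 and 0 or 1 in DG-75 under Ento+AZD, and 0 under AZD in DG-75. Without the replicate term the Ento+AZD calls numbered 0 for SU-DHL-4, and for DG-75 7, while the AZD call in DG-75 was lost.

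Across the 191 pairs the changes of antisense transcript and sense gene under Ento+AZD had r = 0.259 in SU-DHL-4, against 0.0854 in DG-75, given as a description over pairs that share arrays. Among the 63 pairs whose starts lay within 1 kb r was 0.377 and 0.277, and among 76 pairs with starts farther apart 0.223 and -0.0191. In SU-DHL-4 the order was the reverse under AZD (0.151 within 1 kb, 0.274 farther apart) and under Ento (0.0354 and 0.167). In DG-75 the values were 0.13 and -0.0298 under AZD and 0.2145 and 0.1816 under Ento. These values were not compared by a test.

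**Figure D5:**
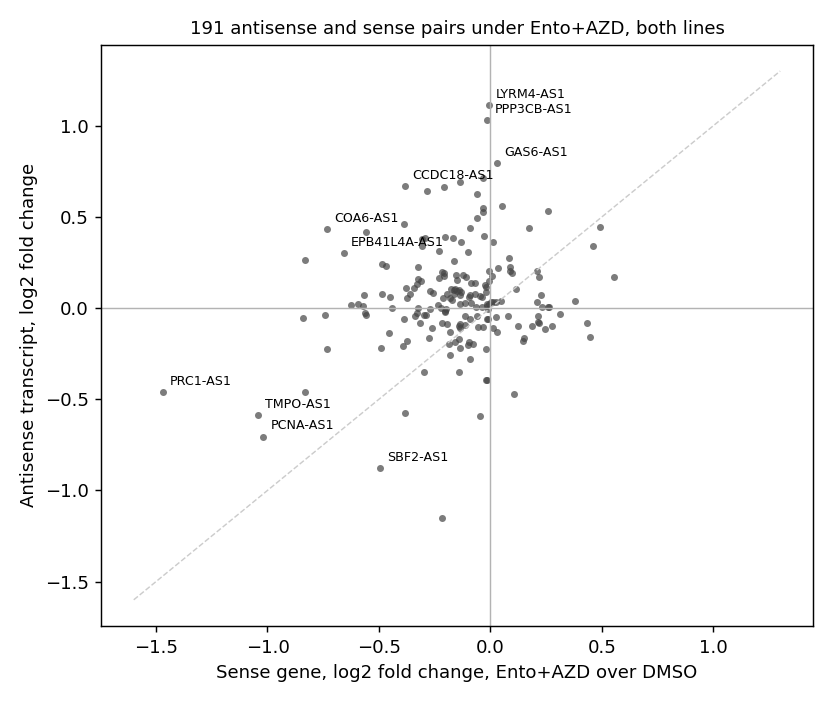
Log2 fold change under Ento+AZD against DMSO over both lines of the sense gene (horizontal) and of the antisense transcript (vertical) for 191 pairs, with equal changes on the dashed line. LYRM4-AS1, PPP3CB-AS1 and GAS6-AS1 are high over sense genes near 0, while PCNA-AS1 and TMPO-AS1 are lower together with their sense genes. PRC1-AS1 (-0.46) did not pass the test (limma, adjusted p = 0.0707).

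The members were also grouped by their sense genes, with the changes under Ento+AZD over both lines at an adjusted p under 0.05 in limma, where 11.5% of the 200 members were higher and 4.0% lower, against 1.46% and 7.03% of all rows and 2.49% and 13% of rows at the members' level. Of 8 members opposite genes listed under cell division, replication and repair, 3 were lower (37.5%) and 1 higher (12.5%), with a median of -0.34 against 0.04 over the members and -0.07 over all rows. Of the 3, only PCNA-AS1 passed after subtraction of array medians, after quantile normalization or without the replicate term, while TMPO-AS1 and SGO1-AS1 did not. The list also holds CCNT2, a cyclin known for transcription elongation, and CCNT2-AS1 was at 0.04. PCNA-AS1, opposite the gene for the replication clamp, read 7.38, 7.11 and 7.48 in DMSO and 6.66, 5.92 and 6.89 under Ento+AZD in SU-DHL-4, and 7.89, 7.67 and 7.72 against 7.27, 7.19 and 7.09 in DG-75, with no overlap in either line. PCNA was at -1.02 (limma, adjusted p = 0.000218). TMPO, for a lamina-associated protein, was at -1.04 and SGO1, a protector of centromere cohesion, at -0.83 (limma, adjusted p = 0.000146 and 0.00296). The member that rose was CCDC18-AS1, opposite a coiled-coil protein gene, with CCDC18 at -0.38 (limma, adjusted p = 0.301). Whether part of the PCNA-AS1 signal comes from PCNA could not be read from the deposited values, since the probes are not listed.

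Of 10 members opposite lymphoid signalling genes, 2 rose (20%) and 0 fell. They were SH3BP5-AS1, opposite a gene for a protein that binds the kinase BTK, and MAP3K14-AS1, opposite the gene for the NF-kappa-B-inducing kinase. MAP3K14-AS1 read 5.13, 4.92 and 4.71 in DMSO and 5.67, 5.74 and 5.61 under Ento+AZD in SU-DHL-4, and 5.93, 6.02 and 6.2 against 6.82, 6.10 and 6.72 in DG-75, where the arrays overlapped. SH3BP5 (-0.21) and MAP3K14 (-0.06) did not pass the test. Of 11 members opposite chromatin and transcription genes, 1 was higher (9.09%), GABPB1-AS1 (0.46; limma, adjusted p = 0.0185), while GABPB1, a subunit of an ETS-family factor, was at -0.39 (adjusted p = 0.00709). Of 25 members on a list of antisense transcripts with published work, 5 were higher and 5 lower (20% each), and 6 higher and 3 lower after either other scaling. OIP5-AS1 (-0.22), THAP9-AS1 (-0.19), EPB41L4A-AS1 (0.30) and FGD5-AS1 (-0.05), the brightest on that list, did not pass (limma, adjusted p = 0.0648 to 0.812).

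Genes that remove antisense RNA were not called at the fold limit, but some of the exosome and its adaptors were lower without it. Of these 18 genes, 0 were called by limma under Ento+AZD over both lines, against 0.856% of all rows. At an adjusted p under 0.05, 5 of the 18 were lower and 0 higher, against 7.03% and 1.46% of all rows and 13% and 2.49% of rows at the members' level. Their median was -0.17, against -0.07 over all rows and -0.10 over rows at the members' level. EXOSC8 (-0.73) and EXOSC9 (-0.44) of the exosome core and ZCCHC8 (-0.52) of an adaptor complex had the smallest p. Of 22 genes of transcript cleavage and termination 1 was higher (INTS3, an Integrator subunit, 0.37), and of 10 genes that bind or process double-stranded RNA 1 was lower (AGO2, -0.34), both named because they were alone in their list, and both counts are to be read against the same shares. These changes were measured beside those of the members, and their part in the result was not tested.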

How the data were processed

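The deposited table held log2 expression values made by the authors: robust multi-array average (RMA) with limma, per the study's methods and the submitters' processing notes, and symbols assigned to probes through affycoretools and a Clariom transcript cluster annotation. RMA corrects background, makes array distributions alike and gives 1 log2 value for each transcript cluster. Labelled target was sense-strand cDNA, so strand is kept. Versions, genome build and probe positions are not given in the sources used here, and the table has no detection values, so low values cannot be split into expressed and not expressed.

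The table had 25575 rows. Array medians were 4.89 to 5.14 and replicates correlated at r = 0.981 to 0.992. Each of the 8 groups had 3 arrays, stated to be biological replicates, and this number limits the precision. The rule found 200 members, of which 2 had several rows, and all 200 passed a filter on rows under the median.

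Tests used R 4.3.3 and limma 3.58.1, for each line with treatment and replicate number as terms (the study's methods name a batch without defining it), over both lines with line added and replicate number within line, and for the difference in response by interaction. The difference between the lines in treated arrays was fitted with treatment and line alone, without a replicate term. P-values were adjusted by Benjamini-Hochberg over all rows, or over 1056 pairs. A row was called where its adjusted p lay under 0.05 and its log2 fold change exceeded 1 in size. Treatment contrasts against DMSO share the DMSO arrays with each other and with the choice of members. The fits were run on simulated data that held no replicate effect and no difference between the lines, so this run could not check the replicate term. Alternatives were the fold limit, scaling, variance prior, a filter on dim rows, the replicate term, 1 fit of all arrays, leaving out single arrays and other choices of members, the last in part added after seeing the data.

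Members and gene lists were chosen with earlier results of these data known. Named were the 10 brightest members, the 3 on either side of the limit, called members or those with the smallest p, a list of antisense transcripts with published work, members opposite genes of 3 sense lists, sense genes of named members, the leading pairs and line differences, and turnover genes with the smallest p. Values of 1 member are not reported here.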

Additional observations from a re-analysis of the deposited data

How the results depend on the processing

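Without a fold limit, the counts of members passing were 8 for Ento+AZD against DMSO in SU-DHL-4 (4.0%, against 2.36% of all rows) and 8 in DG-75 (4.0%, against 2.39%), 1 and 7 for Ento+AZD against Ento (0.5% and 3.5%, against 0.102% and 1.66%), 1 for AZD in DG-75 (0.5%, against 0.293%), 9 for AZD and 31 for Ento+AZD over both lines (4.5% and 15.5%, against 4.66% and 8.49%), and 83 between the lines (41.5%, against 31.0%). A variance prior that follows the level gave 2 members for Ento+AZD against Ento in SU-DHL-4 and 1 for AZD in DG-75, and leaving out rows under the median or fitting all arrays at once gave 1 and 1. Quantile normalization gave 0 for Ento and 1 for AZD over both lines. The replicate number was a term in the fits because the study's methods name a batch, but not every same-numbered pair of arrays deviated together, so the numbers are not shown to pair the arrays: correlations of deviations ran from -0.111 to 0.394 (median 0.15, against -0.07 for different numbers) in SU-DHL-4 and from -0.355 to 0.344 (median 0.04, against -0.01) in DG-75. With no replicate block, 0 members remained called for Ento+AZD in SU-DHL-4, 0 for Ento over both lines, and 0 antisense and sense pairs for Ento+AZD in SU-DHL-4 and for AZD in DG-75; the cause was not tested.

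With 1 array left out, the counts of called members ran from 0 to 2 for Ento+AZD against DMSO in SU-DHL-4, 0 to 3 in DG-75, there 0 to 3 also when set against Ento, 0 to 1 for Ento, 2 to 4 for Ento+AZD over both lines, and 13 to 15 between the lines. For the pairs they ran from 0 to 3 for Ento+AZD in SU-DHL-4, 0 to 1 in DG-75, 0 to 1 for Ento in DG-75 and 0 to 0 for AZD in DG-75.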
